A study of Mus musculus with 9 samples.

Results

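The comparison described here set T-cells of 3 mice with leukemia that were treated with rIL-12 (recombinant interleukin-12) against T-cells of 3 mice without leukemia, which are 6 of the 9 mice of the series. The other 3 mice had leukemia and served as a second reference: the labels list them as untreated, and the study describes them as given bovine serum albumin as vehicle. All were female, wild-type C57BL/6 mice aged 6 to 8 weeks and were not irradiated. Mice with leukemia received 200000 cells of a single BCR-ABL1+ Arf-/- B-ALL (B-cell acute lymphoblastic leukemia) line by tail vein, so the leukemia groups model 1 engineered line. rIL-12 was given into the peritoneum at 1 µg a dose, daily from day 3 of leukemia until day 7. Bone marrow was taken on day 7, and RNA of its T-cells, which a pan-T-cell kit had separated, was put on the mouse Immune Exhaustion panel of the nCounter platform. This assay counts each transcript directly with a barcoded probe pair, and all 785 of its probes were tested.

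Interleukin-12 is made by dendritic cells and macrophages and acts on T-cells and NK cells through a receptor that signals by JAK2, TYK2 and STAT4. Its best known effect is the production of interferon gamma. Interferon gamma in turn acts through the kinases JAK1 and JAK2 to induce guanylate-binding proteins, the chemokine CXCL9, the immunoproteasome and, through the transactivator CIITA, the MHC class II genes. T-cells that meet antigen again and again can enter a state called exhaustion, in which coinhibitory receptors such as PD-1, LAG-3, TIGIT and TIM-3 stay on the surface.

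Total counts ranged from 467447 to 478865 per mouse without leukemia, from 257613 to 548385 with vehicle and from 500764 to 711748 with rIL-12. Values below are normalized counts, in which each mouse's counts were scaled by the TMM method of edgeR. Mice of 1 group differed by more than counting error, and the rIL-12 mice differed most among themselves: chi-square per degree of freedom was 38.6 to 60.0 between pairs of rIL-12 mice and 5.54 to 28.1 between pairs without leukemia. A panel probe against a viral sequence (LCMV glycoprotein) read 53 to 114 counts per mouse, and 252 of the 785 probes had a mean at or below its mean of 91. P-values measure the spread between these mice only.

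The labelled cell type was checked against marker genes. All 3 measured CD3 chains were well above the viral probe in the mice without leukemia. Their sum was lower in both leukemia groups. It was 2256 to 4034 normalized counts per mouse without leukemia, 1434 to 2017 with vehicle and 775 to 1438 with rIL-12. Genes of other cells were counted as well: the 7 monocyte and macrophage markers summed to between 9991 and 11792 normalized counts per mouse without leukemia, 10609 to 14943 with vehicle and 11080 to 15943 with rIL-12. The 5 measured markers of B-cells and B-ALL summed to 399 to 519, 490 to 716 and 502 to 528 in the same order, and none of the 5 passed the test. No probe was at 0 in any mouse. The part of other cells in the results was not tested.

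Against mice without leukemia, 138 of the 785 probes (17.6%) were differentially expressed in the T-cell isolates of rIL-12 treated mice. A call needed an adjusted p under 0.05 in edgeR's quasi-likelihood test after Benjamini-Hochberg adjustment over all probes. It also needed a change of at least 1.5-fold. Of the 138, 70 were higher (8.92%) and 68 were lower (8.66%). The lower genes were led by the T-cell receptor complex, its signaling chain and genes of naive and memory T-cells. The higher genes were led by interferon-inducible genes, MHC class II, and the proteasome. The lower genes had the larger typical change, with a median log2 size of 1.16 against 0.90 for the higher genes, and 44 of 68 lower and 28 of 70 higher genes changed at least 2-fold. In 279 probes (35.5%) the values of the rIL-12 mice and the mice without leukemia did not overlap, among them all 68 lower and 57 of the 70 higher genes.

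**Figure D1:**
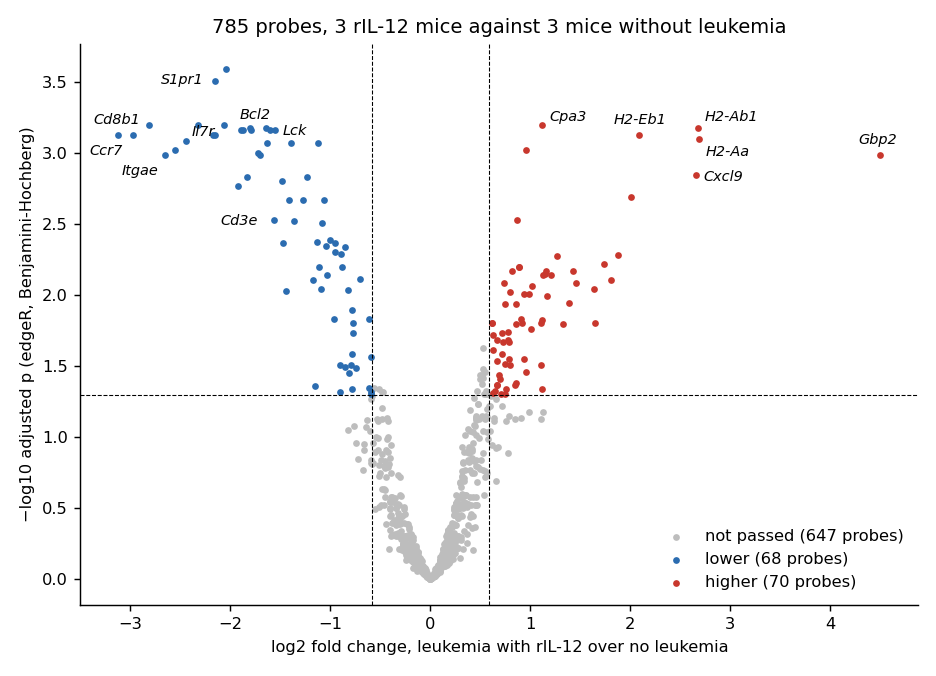
Each point is 1 of the 785 probes, with the log2 fold change of rIL-12 treated mice over mice without leukemia on the x axis and −log10 of edgeR's adjusted p on the y axis, and dashed lines mark the 1.5-fold and 0.05 thresholds. The 68 lower genes (blue) include Cd8b1 at −3.12 and Ccr7 at −2.97, and the 70 higher genes (red) reach 4.50 for Gbp2.

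The higher calls rested more on the scaling and on single mice than the lower calls did. With scaling by 11 housekeeping genes, 22 probes were higher and 96 lower, so that 81.4% of calls were lower in place of 49.3%, and the median log2 change of all probes was −0.27 in place of 0.02. With scaling by total counts, 37 were higher and 83 lower (69.2% lower, median −0.15). All 4 scalings called 66 of the 68 lower and 22 of the 70 higher genes. The number of higher genes was 19 without mouse 1 of the group without leukemia and 25 without rIL-12 mouse 2.

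The T-cell receptor complex and its coreceptors fell. Of 8 measured members 7 were lower, none was higher, and the median log2 change was −1.52 against 0.02 over all 785 probes. Cd8b1, the beta chain of the CD8 coreceptor, was at 2039, 1008 and 1804 normalized counts in the 3 mice without leukemia, 683, 245 and 152 with vehicle and 214, 128 and 214 with rIL-12. Every rIL-12 mouse was below every mouse without leukemia, and the difference was 8.70-fold (log2 −3.12 ± 0.47, standard error, adjusted p = 0.000744 by edgeR). Cd8a, the alpha chain, was at 590, 346 and 480 without leukemia, 266, 99.7 and 68.5 with vehicle and 64.1, 70.1 and 106 with rIL-12, a fall of 5.88-fold. Cd3e, a signaling chain of the receptor complex, was at 867, 464 and 685 without leukemia, 433, 296 and 311 with vehicle and 146, 210 and 328 with rIL-12 (log2 −1.56 ± 0.29, edgeR adjusted p = 0.00293). The other chains followed, with log2 changes of −1.71 for Cd3d and −1.28 for Cd3g, and the surface regulators Cd6 and Cd5 changed by −1.47 and −0.79. The Cd4 coreceptor did not pass: it was at 208, 146 and 107 without leukemia and 84.9, 171 and 201 with rIL-12 (log2 −0.02 ± 0.33, edgeR adjusted p = 0.976). In such bulk samples, fewer cells of a type and less RNA per cell cannot be told apart.

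Since the CD3 chains themselves fell, some genes were also expressed per 100 normalized counts of Cd3d, Cd3e and Cd3g summed in the same mouse. That sum was at 4034, 2256 and 3364 without leukemia and 775, 1146 and 1438 with rIL-12, a log2 difference of −1.53, so a gene with an unchanged level rises by that much on this scale. Lck, a kinase that starts signaling from the receptor, was at 44.4, 48.5 and 42.5 per 100 CD3 counts without leukemia and 45.8, 42.9 and 39.9 with rIL-12, values that overlap. Cd8b1 was at 50.5, 44.7 and 53.6 without leukemia and 27.6, 11.2 and 14.9 with rIL-12, so it was lower per CD3 count in every rIL-12 mouse. Ccr7 and Il7r were also lower per CD3 count without overlap. Ccr7 was at 29.2, 24.2 and 25.3 without leukemia and 14.7, 5.98 and 10.0 with rIL-12. Cd4 was at 5.16, 6.46 and 3.19 without leukemia and 10.9, 14.9 and 14.0 with rIL-12. Groups of 3 against 3 cannot go below p = 0.1 in an exact two-sided permutation test. For Cd4 the rise per CD3 count, 1.47 on the log2 scale, was that of a gene with an unchanged level.

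Genes that carry the receptor signal inward were lower too: 9 of 19 measured members passed, none rose, and the median was −0.56. Rasgrp1, which activates RAS downstream of the receptor, was at 759, 371 and 645 without leukemia, 266, 118 and 204 with vehicle and 111, 105 and 177 with rIL-12 (log2 −2.17 ± 0.33). Dgka, a lipid kinase that dampens the diacylglycerol signal, was at 2854, 1610 and 2110 without leukemia, 1313, 708 and 648 with vehicle and 408, 334 and 566 with rIL-12 (−2.33 ± 0.30). Both an activator and a brake of the pathway fell, each with no overlap between the groups. The adaptor Grap2 changed by −2.15, Lck by −1.60, the phospholipase Plcg1 by −1.06, the phosphatase Ptpn22 by −0.95 and the CD45 gene Ptprc by −0.77. Zap70, the kinase that binds the phosphorylated CD3 chains, was at 699, 539 and 496 without leukemia, 538, 753 and 488 with vehicle and 124, 201 and 457 with rIL-12 (−1.15 ± 0.36). Its call was lost with housekeeping scaling, with the replicate block and without any single mouse of the group without leukemia, vehicle mouse 3, or rIL-12 mouse 1 or 2. The 10 members that did not pass included the adaptors Lcp2 at −0.26 and Grb2 at 0.05.

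Farther along the same path, 4 of 9 AP-1 and NFAT factors and 4 of 14 calcineurin and calcium genes were lower and none was higher. Among all probes 8.66% were lower. Nfatc2 was counted in both lists, and the list of 14 was drawn up after the values were seen. The list of 9 was drawn up for EGR factors as well but held no EGR gene. The lower factors were Fos (−0.85), Jund (−0.90), Nfatc2 (−0.79) and Junb (−0.60). None of these 4 calls held without rIL-12 mouse 2 or without mouse 1 of the group without leukemia. The lower calcium genes were the calcineurin subunit Ppp3cc (−1.04), the calcium channel Itpr2 (−1.24), the kinase Prkcb (−0.82) and Nfatc2. Without rIL-12 mouse 2, or without mouse 1 of the group without leukemia, 2 calcium genes were lower.

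Genes of naive and memory T-cells were the list with the lowest median of the 31 functional lists, −1.89, with 7 of 9 members lower. These genes serve homing to lymph nodes, exit from tissue and survival. Ccr7, the chemokine receptor for entry into lymph nodes, was at 1176, 546 and 852 without leukemia, 406, 151 and 119 with vehicle and 114, 68.5 and 144 with rIL-12 (7.85-fold lower, log2 −2.97 ± 0.44, edgeR adjusted p = 0.000744). Il7r, the receptor chain for the survival cytokine IL-7, was at 2375, 1262 and 1455 without leukemia, 1286, 1057 and 683 with vehicle and 231, 184 and 521 with rIL-12 (log2 −2.44 ± 0.38). Every rIL-12 mouse was below every vehicle mouse for Il7r, and that difference passed as well (log2 −1.70, edgeR adjusted p = 0.0151). S1pr1, the receptor that leads T-cells out of tissue, was at 896, 523 and 601 without leukemia, 411, 293 and 271 with vehicle and 143, 127 and 182 with rIL-12 (log2 −2.15 ± 0.24), also lower than with vehicle (log2 −1.11, edgeR adjusted p = 0.0151). The transcription factors Lef1, Klf2 and Foxo1 changed by −2.07, −1.89 and −1.55, and the survival gene Bcl2 by −1.80. All 7 lower members were called in each of the 9 fits that drop 1 mouse and under each of the 4 scalings.

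**Figure D2:**
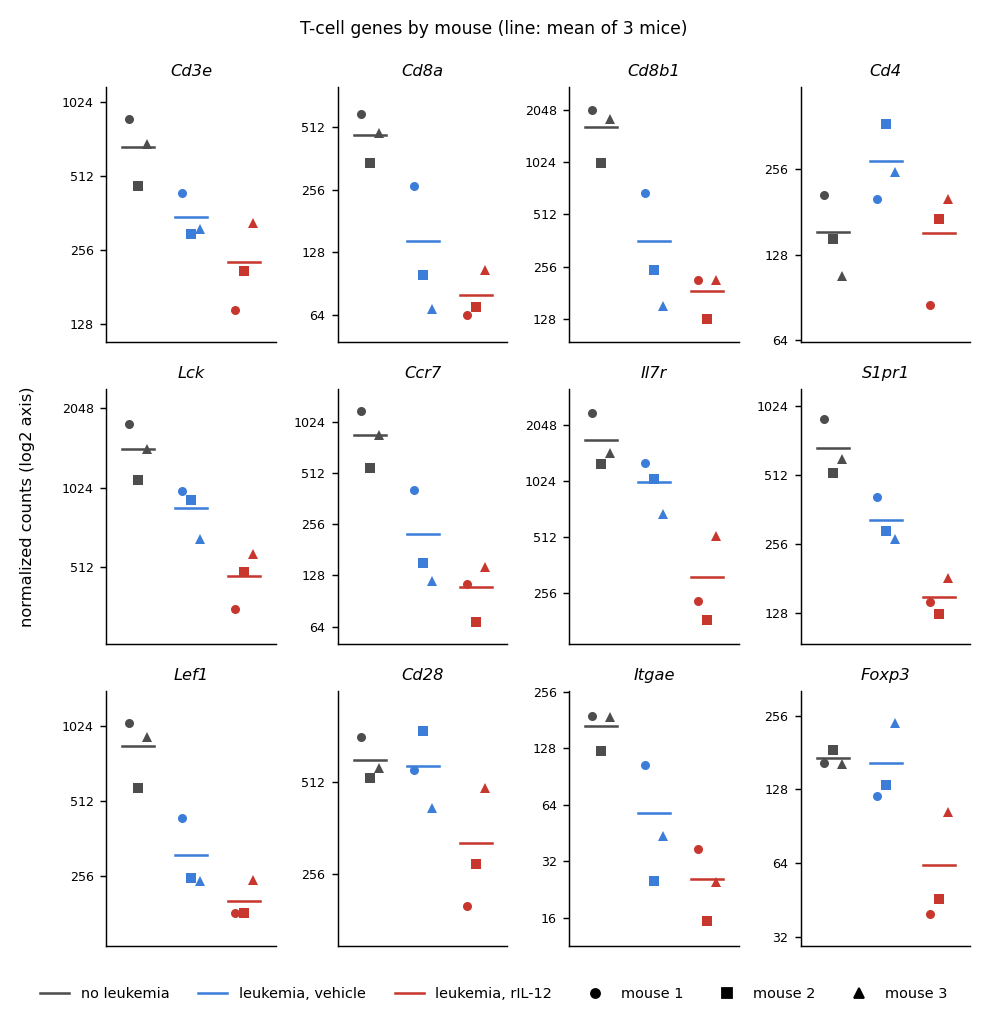
Normalized counts of 12 T-cell genes in each of the 9 mice on log2 axes, with 1 symbol per mouse and a line at the mean of the 3 mice of a group. In 11 of the 12 genes every rIL-12 mouse lies below every mouse without leukemia, and in Cd4 the groups overlap.

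Costimulatory and adhesion genes showed a mixed picture on the lower side. Of 9 costimulatory receptors 3 were lower, Cd28 (−0.90), Cd226 (−1.04) and Slamf6 (−1.09), and Icos did not pass (0.25). Cd28 was not called in 7 of the 9 fits that leave out 1 mouse. Itgae, the CD103 integrin that holds T-cells in epithelium, was the only one of 7 integrins to pass: it was at 191, 123 and 188 without leukemia, 104, 24.9 and 43.4 with vehicle and 37.2, 15.3 and 24.8 with rIL-12 (log2 −2.66 ± 0.43), with a mean count over all mice below that of the viral probe. Among 10 NK receptors Klrd1 (−1.83), Cd96 (−1.88) and Cd226 were lower, and Klrk1, the activating receptor NKG2D, was higher at 206, 237 and 263 without leukemia against 464, 1065 and 374 with rIL-12 (1.43 ± 0.31). Leaving out mouse 1 of the group without leukemia ended the call of Klrk1.

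Of 17 cytotoxic effectors 2 were higher and 2 were lower, shares close to the 8.92% and 8.66% of all probes. Perforin, Prf1, was at 214, 158 and 175 without leukemia and 92.7, 98.3 and 101 with rIL-12 (−0.90 ± 0.19). Per 100 CD3 counts it turned the other way, at no more than 7.00 in the mice without leukemia and no less than 7.05 in those given rIL-12, a log2 difference of 0.63. The protease gene Ctsw changed by −1.73. The death ligand Tnfsf10 rose by 1.01 and Ifng by 1.39, and neither was called under housekeeping scaling, nor when either no-leukemia mouse 1 or rIL-12 mouse 2 was dropped. Gzmb did not pass against mice without leukemia (0.07 ± 0.23). It was at 62.6, 58.7 and 44.5 without leukemia, 83.8, 137 and 91.9 with vehicle and 59.8, 55.6 and 59.0 with rIL-12. It was lower than with vehicle (−0.84, edgeR adjusted p = 0.0259), but all its values except that of vehicle mouse 2 lay within or below the range of the viral probe.

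Of 13 coinhibitory receptors 2 rose and 1 fell, beside 8.92% higher and 8.66% lower among all probes. The median log2 change was 0.10, which turned to −0.23 under housekeeping scaling and to −0.08 under scaling by total counts. Tigit was at 104, 183 and 117 without leukemia, 231, 551 and 423 with vehicle and 162, 338 and 378 with rIL-12 (1.11 ± 0.36, edgeR adjusted p = 0.0456). The groups overlapped, and the call was lost under housekeeping or total count scaling and in 5 of the 9 fits that drop 1 mouse. Havcr2, the TIM-3 gene, passed at 0.85 with a mean count below that of the viral probe. Lag3 did not pass, with 52.0, 72.8 and 36.7 without leukemia, 134, 327 and 224 with vehicle and 70.2, 99.1 and 189 with rIL-12 (1.13 ± 0.40, edgeR adjusted p = 0.0657). Pdcd1, the PD-1 gene, was at 55.2, 67.8 and 60.9 without leukemia, 101, 236 and 221 with vehicle and 50.2, 82.2 and 121 with rIL-12 (0.45 ± 0.34, edgeR adjusted p = 0.430), and was lower than with vehicle (−1.13, edgeR adjusted p = 0.0400). Per 100 CD3 counts, Lag3 was at 1.29, 3.23 and 1.09 without leukemia, 6.66, 17.5 and 15.6 with vehicle and 9.05, 8.65 and 13.2 with rIL-12.

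Of 15 probes for exhaustion and effector transcription factors, Eomes (−1.12) and Nr4a1 (−0.78) were lower and none was higher. Nr4a1 was not called in 7 of the 9 fits that drop 1 mouse, and Eomes was lost without mouse 3 of the group without leukemia, which left no call in the list. Tox was at −0.57 ± 0.24 and Tbx21, the T-bet gene, at −0.18 ± 0.29, neither of which passed. Among 8 regulatory T-cell genes, 2 rose and 2 fell. Foxp3, the factor that defines these cells, was at 165, 186 and 163 without leukemia, 120, 133 and 239 with vehicle and 39.8, 45.9 and 103 with rIL-12 (−1.45 ± 0.34, edgeR adjusted p = 0.00932), a call that was lost without rIL-12 mouse 2. Per 100 CD3 counts its groups overlapped, at 4.08, 8.25 and 4.85 without leukemia and 5.14, 4.01 and 7.19 with rIL-12. The level was lower than with vehicle too (−1.36, edgeR adjusted p = 0.0213). Il10, a suppressive cytokine, was at 19.1, 22.3 and 22.2 without leukemia, 52.5, 114 and 80.2 with vehicle and 39.0, 80.6 and 100 with rIL-12 (1.73 ± 0.37, edgeR adjusted p = 0.00600). Both leukemia groups were above the mice without leukemia for Il10, all values lay within or below the range of the viral probe, and rIL-12 and vehicle overlapped. The ectoenzymes Nt5e (CD73) and Entpd1 (CD39) went opposite ways, −1.41 and 0.67. The fall of Nt5e was called with each mouse left out and under each scaling, but its average did not exceed the viral probe's. The call of Entpd1 was lost under housekeeping or total count scaling. Entpd1 was also not called without vehicle mouse 2, rIL-12 mouse 2 or any single mouse of the group without leukemia.

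Of 18 interferon-inducible genes 6 were higher, 12 did not pass, none was lower, and the median was 0.69. Gbp2, a guanylate-binding protein that attacks intracellular pathogens, had the largest change of all probes. It was at 163, 127 and 133 without leukemia, 229, 703 and 232 with vehicle and 488, 6126 and 3056 with rIL-12, a difference of 22.7-fold (log2 4.50 ± 0.73, edgeR adjusted p = 0.00102). Every rIL-12 mouse was above every mouse without leukemia, but rIL-12 mouse 1 was below vehicle mouse 2. Cxcl9, a chemokine that draws CXCR3-bearing T-cells, was at 96.6, 140 and 104 without leukemia, 131, 249 and 145 with vehicle and 426, 1374 and 362 with rIL-12 (2.66 ± 0.45), with every rIL-12 mouse above every other mouse. Bst2 (1.13), the Fc receptor Fcgr1 (1.11) and Oas1a (0.85) passed as well. Of the 12 that did not pass, the largest changes were those of Oas2 (0.99), Xaf1 (0.91), Cd274 (0.75) and Ifit1 (0.62). The others were Oas3 (0.51), Socs1 (0.23), Irf8 (0.10), Gbp2b (0.06), Ido1 (−0.02), Rsad2 (−0.07), Nos2 (−0.24) and Ifit3 (−0.25). Gbp2 and Cxcl9 were called with each mouse left out and under each scaling. Over the list, 4 members passed under housekeeping scaling and 3 when no-leukemia mouse 1 was dropped.

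Within the IL-12 and interferon gamma axis 3 of 12 genes were higher and none was lower. Ifng was at 93.4, 138 and 127 without leukemia, 132, 175 and 159 with vehicle and 149, 488 and 304 with rIL-12 (1.39 ± 0.33, edgeR adjusted p = 0.0113). The lowest rIL-12 mouse was just above the highest mouse without leukemia, and the call was lost without rIL-12 mouse 2, without mouse 1 of the group without leukemia and with housekeeping scaling. Jak2 rose by 0.73. The receptor chain Il12rb1 was at 78.5, 85.0 and 72.5 without leukemia and 70.2, 181 and 261 with rIL-12 (1.10 ± 0.41, edgeR adjusted p = 0.0740), and Stat4, the factor downstream of the receptor, at −0.44 ± 0.22 did not pass. Of the related signaling genes, Stat3 rose by 0.89, with 900, 645 and 943 without leukemia against 1274, 1904 and 1435 with rIL-12.

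MHC class II presentation had 6 of 8 members higher and 1 lower, with a median of 1.18. These genes load and show peptides to CD4 T-cells and are mostly expressed by B-cells, dendritic cells and macrophages. H2-Aa, an alpha chain, was at 273, 284 and 272 without leukemia, 374, 491 and 436 with vehicle and 1622, 3085 and 625 with rIL-12 (6.42-fold, log2 2.68 ± 0.41, edgeR adjusted p = 0.000798). H2-Ab1, its partner beta chain, was at 146, 157 and 125 without leukemia, 227, 301 and 164 with vehicle and 828, 1470 and 443 with rIL-12 (2.67 ± 0.36). H2-Eb1 was at 43.5, 49.6 and 54.1 without leukemia, 78.7, 119 and 78.5 with vehicle and 180, 325 and 127 with rIL-12 (2.08 ± 0.32). In these 3 genes each rIL-12 mouse was above every mouse of both other groups. The peptide loading genes H2-DMb1 (1.27) and H2-DMa (0.74) and the transactivator Ciita (1.10) rose as well. Ciita had a mean count below that of the viral probe, and its call and that of H2-DMa were lost with housekeeping and total count scaling. H2-Ob, which restrains peptide loading in B-cells, was lower (−0.62 ± 0.15). The 2 measured dendritic cell markers summed to 387 to 438 without leukemia, 273 to 329 with vehicle and 171 to 262 with rIL-12. Siglech, a plasmacytoid dendritic cell gene, fell by 0.96 on the log2 scale. For 1 of the 2 markers the mean count was at or below that of the viral probe. By flow cytometry of bone marrow cells, the paper reports that rIL-12 restored the numbers of conventional and plasmacytoid dendritic cells in mice with leukemia. Those are cell numbers in marrow by surface protein, and the values here are RNA of T-cell isolates, so they cannot be compared directly. Which cells carried the MHC class II counts was not tested. Among 7 monocyte and macrophage markers Cd68 (0.75) and Fcgr1 rose, and the other 5, Csf1r at 0.07 among them, did not pass. Neither Cd68 nor Fcgr1 passed with housekeeping scaling. The Fc receptor gene Fcgr4, of the wider list of 17 myeloid genes, was at 44.6, 41.5 and 44.5 without leukemia and 72.8, 242 and 94.2 with rIL-12 (1.64 ± 0.38). It was called under all 4 scalings but not without mouse 1 of the group without leukemia, and its mean count was below that of the viral probe.

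The promoters of these genes can be shown beside their values. The stretches below are upstream sequence from RefSeq (GRCm38.p6) that ends at the base before the annotated start, 5′ to 3′ on the gene's strand, for the interferon gene with the largest change, for Lgals9, another higher gene with the same element, and for a pair of MHC class II genes. In Gbp2 and Lgals9 the capitals mark GAAANNGAAA, the core of the interferon-stimulated response element, which reads here on the opposite strand. In H2-Eb1 they mark the X box (AGCAACNGATG) and the Y box (CTGATTGG), and in H2-Aa the Y box, which are elements of MHC class II promoters.
Gbp2, chr3:142620544-142620662, plus strand: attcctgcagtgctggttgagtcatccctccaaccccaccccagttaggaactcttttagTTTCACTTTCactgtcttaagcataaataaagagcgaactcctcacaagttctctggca
Lgals9, chr11:78984925-78985039, minus strand: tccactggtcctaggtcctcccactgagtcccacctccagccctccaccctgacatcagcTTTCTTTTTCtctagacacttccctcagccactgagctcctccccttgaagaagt
H2-Eb1, chr17:34305715-34305866, plus strand: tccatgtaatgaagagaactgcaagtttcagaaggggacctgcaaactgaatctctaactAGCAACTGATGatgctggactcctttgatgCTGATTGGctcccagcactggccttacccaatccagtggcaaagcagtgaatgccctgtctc
H2-Aa, chr17:34287824-34287934, minus strand: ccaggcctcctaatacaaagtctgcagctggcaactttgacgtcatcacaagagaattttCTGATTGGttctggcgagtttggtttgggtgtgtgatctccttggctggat

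Searched on both strands from 250 bases before to 50 bases after the start, GAAANNGAAA was in 5 of the 60 higher genes with a window (Bst2, Fcgr4, Gbp2, Lgals9 and Oas1a), in 1 of 47 lower genes (Eomes), in 30 of the 476 other panel genes (6.30%) and in 3.44% of all 32851 windows. The X box letters were in H2-Eb1 alone among both sets and in 0.0700% of all windows. The Y box letters were in 7 of 60 higher genes, in 1 of 47 lower genes, in 33 of 476 other panel genes (6.93%) and in 4.10% of all windows. TTCNNNGAA, the gamma-activated sequence of interferon gamma target genes, was in 9 of 60, 9 of 47, 44 of 476 (9.24%) and 8.30% of all windows. GTAAACA, the core bound by FOXO factors, was in 3 of 60, 5 of 47, 17 of 476 (3.57%) and 3.65% of all windows, and ATCAAAG, bound by LEF and TCF factors, was in 1 of 60, 2 of 47, 14 of 476 (2.94%) and 3.73%. A gene can have several windows, so shares of genes and of windows are not on the same footing. These motifs were picked after the values were seen, and a match in letters is not a binding site.

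MHC class I presentation had 4 of 11 members higher and none lower, with a median of 0.42, and no member passed with housekeeping scaling. The 4 were the nonclassical class I gene H2-M3 (0.82) and 3 genes of the immunoproteasome, the interferon-induced form of the proteasome that cuts peptides for class I. Psmb10 was at 479, 481 and 518 without leukemia, 597, 867 and 548 with vehicle and 646, 1338 and 1441 with rIL-12 (1.21 ± 0.27). Psmb9 rose by 1.14 and Psme2 by 0.85. The classical class I genes moved less: H2-K1 was at 0.56 ± 0.18, under the fold threshold, and H2-D1 at 0.30 ± 0.20.

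The other proteasome subunits measured on the panel rose as well. All 7 proteasome probes of the panel were higher, with a median of 1.14, a list drawn up after the values were seen. Psma1, a subunit of the constitutive core, was at 1198, 981 and 1492 without leukemia, 1039, 741 and 1145 with vehicle and 3532, 5000 and 1576 with rIL-12 (1.46 ± 0.33, edgeR adjusted p = 0.00812). Psma6 rose by 1.16, the ATPase subunit Psmc6 by 1.11 and Psmd6 by 0.62. rIL-12 mouse 3 was just above the highest mouse without leukemia for Psma1 and Psma6. Without rIL-12 mouse 2, 3 of the 7 passed, and without mouse 1 of the group without leukemia 1 of the 7 passed. Under housekeeping scaling 3 of the 7 passed, and under scaling by total counts 6 did.

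Some genes of protein turnover, metabolism and cell division were higher too. Of 22 ubiquitin and SUMO genes 6 were higher, among them the cullin Cul2 (0.96) and the ubiquitin gene Ubb (0.80), and of 19 mitochondrial metabolism genes 5 were higher, among them Oat (0.90), Acadl (0.79) and Hadhb (0.79). Both lists were drawn up after the values were seen, and neither had a higher gene left without rIL-12 mouse 2. Of 10 cell cycle genes 4 were higher: the mitotic cyclin Ccnb1 was at 865, 1012 and 899 without leukemia, 885, 775 and 672 with vehicle and 2249, 2787 and 1173 with rIL-12 (1.16 ± 0.25), and Cdkn2c, Mcm5 and Mcm7 rose by 0.85, 0.62 and 0.62. Of the 4, Ccnb1 alone was called with housekeeping scaling, with scaling by total counts and without rIL-12 mouse 2. None of the 4 was called without mouse 1 of the group without leukemia. Of 11 housekeeping genes of the panel 2, Ubb and Sdha, were higher, and the median of the list was 0.34.

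**Figure D3:**
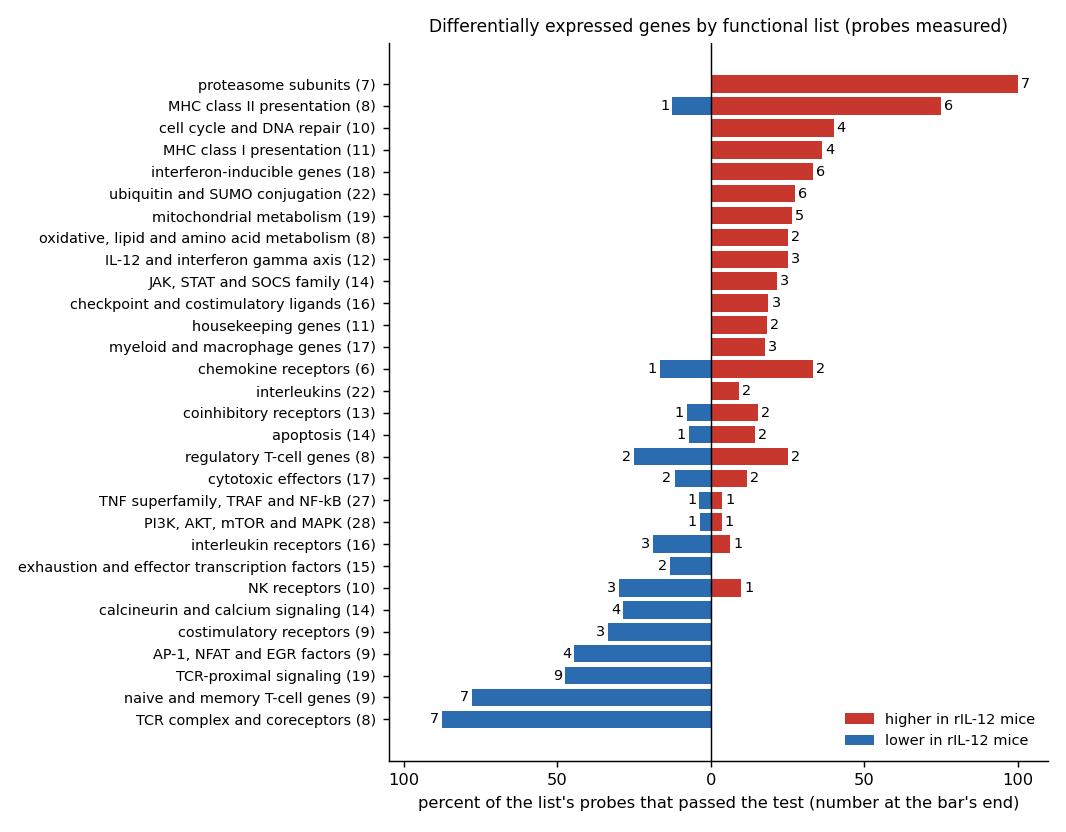
Percent of the probes of each functional list that were higher (red, to the right) or lower (blue, to the left) in rIL-12 mice than in mice without leukemia, for lists with at least 2 such probes, with their numbers at the bars and the probes measured in parentheses. Proteasome subunits (7 of 7) and MHC class II (6 of 8) lie at the top, and TCR complex and coreceptors (7 of 8) and naive and memory T-cell genes (7 of 9) at the bottom.

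Mast cell and basophil genes were higher in both leukemia groups. Ms4a2, a chain of the high-affinity IgE receptor, was at 158, 147 and 154 without leukemia, 326, 293 and 393 with vehicle and 353, 263 and 235 with rIL-12 (0.89 ± 0.19, edgeR adjusted p = 0.00629). Cpa3, a mast cell protease named here after its values were seen, was at 675, 649 and 597 without leukemia, 1185, 1157 and 1360 with vehicle and 1529, 1430 and 1226 with rIL-12 (1.12 ± 0.15, edgeR adjusted p = 0.000626). rIL-12 and vehicle overlapped for both genes, and Hdc, the third measured marker, did not pass (0.17). The call of Ms4a2 was lost under housekeeping scaling, and that of Cpa3 held under each scaling. The galectin gene Lgals9, whose product binds TIM-3, was at 2351, 2818 and 2490 without leukemia, 3218, 5254 and 2563 with vehicle and 3198, 6312 and 9673 with rIL-12 (1.32 ± 0.34). Cd80 (0.78) and Icosl (0.67), ligands of T-cell costimulatory receptors, were the other 2 of 16 checkpoint and costimulatory ligands to pass, and neither passed with housekeeping or total count scaling. Icosl was also lost with DESeq2 size factors and in 8 of the 9 fits that drop 1 mouse, and Lgals9 both under housekeeping scaling and when mouse 1 of the no-leukemia group was dropped. Il21, a cytokine of helper T-cells, rose by 1.81 with a mean count below that of the viral probe.

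**Figure D4:**
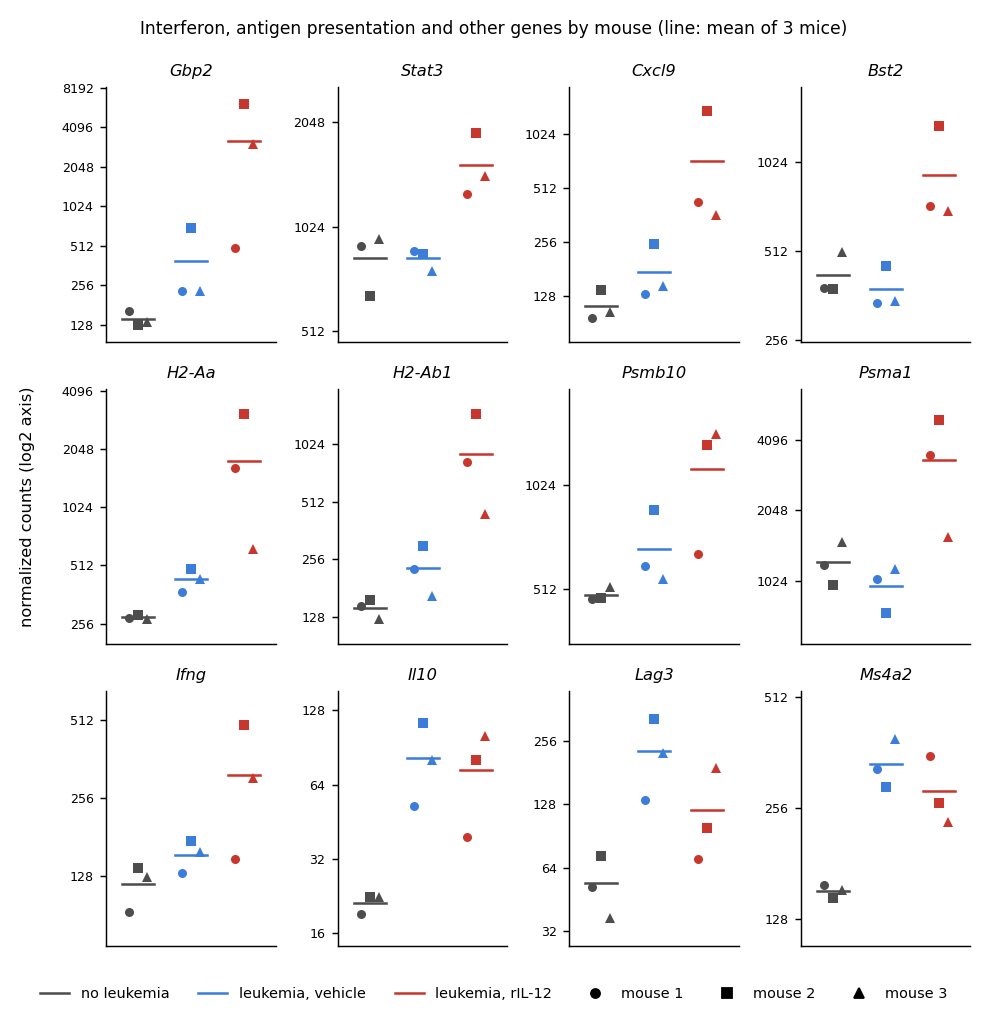
Normalized counts of 12 genes in each of the 9 mice on log2 axes, with 1 symbol per mouse and a line at the mean of the 3 mice of a group. rIL-12 mouse 1 (circle) lies lowest of the 3 in Gbp2, Stat3, Psmb10, Ifng, Il10 and Lag3, and rIL-12 mouse 3 (triangle) lies lowest in Bst2, Cxcl9, H2-Aa, H2-Ab1, Psma1 and Ms4a2.

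The vehicle group shows which of these differences also separated rIL-12 from leukemia alone. Against vehicle, 67 probes were higher (8.54%) and 41 were lower (5.22%) with rIL-12. Of the 70 genes higher than in mice without leukemia, 45 were also higher than with vehicle, and of the 68 lower genes 27 were also lower than with vehicle; none passed in the opposite direction. Both comparisons share the rIL-12 mice. Genes higher against both included Gbp2, Cxcl9, H2-Aa, H2-Ab1, H2-Eb1 and Psma1, with log2 differences from vehicle of 3.04, 2.03, 2.03, 1.97, 1.18 and 1.79. Genes lower against both included Il7r, S1pr1, Dgka, Grap2, Lck, Foxp3 and Bcl2. Cd8b1 and Ccr7 did not pass against vehicle (−0.97 and −1.06), and their vehicle mice were themselves lower than mice without leukemia (−2.15 and −1.91). The count of 72 genes that passed both comparisons was 0 without rIL-12 mouse 2 or without vehicle mouse 2, 4 without vehicle mouse 3 and 140 without rIL-12 mouse 3. At an unadjusted p under 0.05 and 1.5-fold, edgeR's rIL-12 against vehicle comparison held 109, 167 and 159 probes in the fits without rIL-12 mouse 2, vehicle mouse 2 and vehicle mouse 3.

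The rIL-12 mice differed from one another. Among the 70 higher genes rIL-12 mouse 2 was farthest from the mice without leukemia in 59 and closest in none, mouse 3 was closest in 48 and mouse 1 in 22. The genes lowest in mouse 1 were Gbp2, Ifng, Tnfsf10, Psmb9, Psmb10, Lgals9 and Il10, among others. Those lowest in mouse 3 included 5 of the 6 higher MHC class II genes, all 4 higher cell cycle genes, all 6 higher ubiquitin and SUMO genes and all 5 higher mitochondrial genes. Of the 7 proteasome genes, the 3 of the immunoproteasome were lowest in mouse 1 and the other 4 in mouse 3. St3gal6, a sialyltransferase gene named here after its values were seen, was an extreme case, at 119, 148 and 131 without leukemia and 409, 710 and 130 with rIL-12. Among the 68 lower genes mouse 3 was closest to the mice without leukemia in 57. Over all 785 probes, mouse 1, 2 and 3 had the lowest of the 3 values in 235, 270 and 280 probes.

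**Figure D5:**
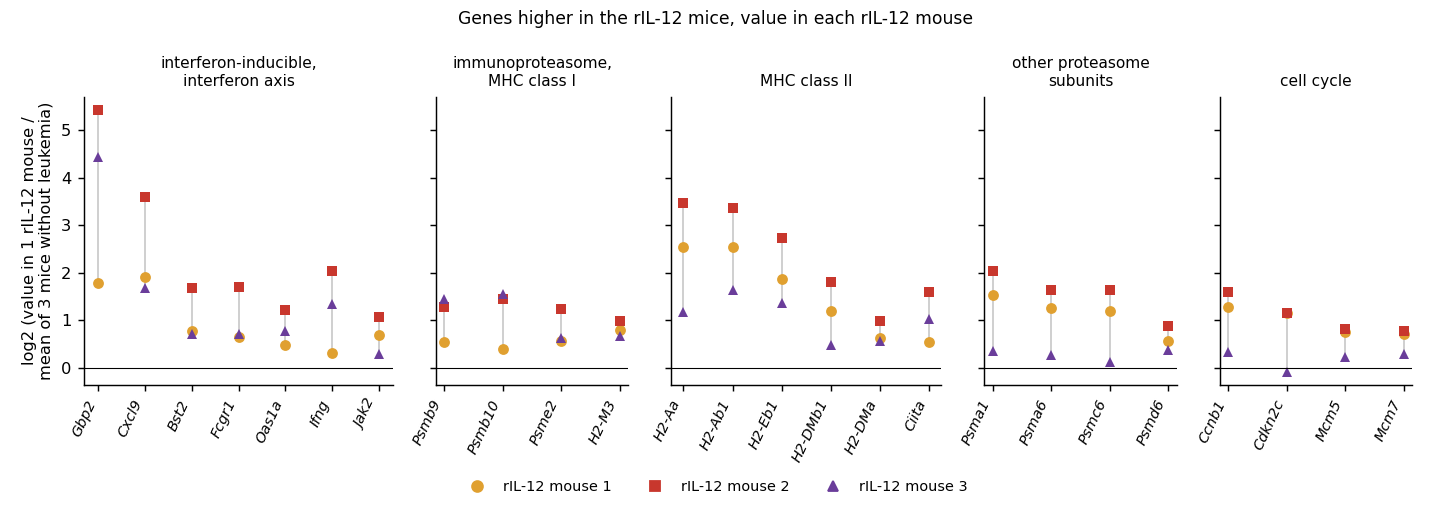
Log2 ratio of the value in each rIL-12 mouse to the mean of the 3 mice without leukemia (y axis) for higher genes of 5 groups, with a grey line joining the 3 mice. Mouse 1 lies lowest for Psmb9, Psmb10, Psme2, Gbp2 and Ifng, and mouse 3 lies lowest for H2-Aa, H2-Ab1, the other proteasome subunits and the cell cycle genes.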

How the data were processed

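RNA of T-cell isolates from 9 mice, 3 per group, was counted with 785 probes. The values the authors deposited are raw barcode counts, in whole numbers, and their nSolver normalization is not in these values. All columns were used. Probes were matched to symbols through transcript names in a RefSeq table for 751 probes, and 34 kept their identifiers. Counts were scaled with TMM and tested with the quasi-likelihood test of edgeR 4.0.16 in R 4.3.3, in 1 model of 3 groups with a prior count of 1 for fold changes, and Benjamini-Hochberg adjustment over all probes. Genes with an adjusted p under 0.05 and a change of 1.5-fold or more were called differentially expressed. The script was tested on simulated data. Ratios to CD3 were compared with exact permutation tests.

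The comparison, gene lists and tests were chosen with earlier results of these data known. Named genes were up to 15 with the largest change in each direction without overlap, up to 5 per list and direction, the first 3 of each list, and genes the paper names. Members beyond these, and the lists of proteasome, ubiquitin and SUMO, mitochondrial, and calcineurin and calcium genes, were chosen after values were seen. Alternatives were other scalings, filters, models, a 2-fold threshold, the methods' t-test, DESeq2 1.42.0 and fits that drop 1 mouse. Some genes are not reported here.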

Additional observations from a re-analysis of the deposited data

How the results depend on the processing

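The 138 calls (70 higher, 68 lower) were set against each alternative, and no gene with a symbol that was called or named changed direction where it was called. Higher calls numbered 22 under housekeeping scaling and 37 under scaling by total counts, against 65 with DESeq2 size factors, 78 with DESeq2, 67 with a mean count of at least 20 and 51 with probes above the viral probe. Lower calls ranged from 62 to 96 over these 6 alternatives. A 2-fold threshold left 72 calls, 28 higher and 44 lower, and 28 of these also passed against vehicle. With a model of only the 2 groups compared, 114 passed, and 19 also passed against vehicle. The methods' t-test with Benjamini-Hochberg adjustment gave 0 calls in every count, with a smallest adjusted p of 0.0981; at unadjusted p and 1.5-fold it gave 40 higher and 69 lower, and edgeR gave 255 probes with an unadjusted p under 0.05. Leaving out 1 mouse at a time gave 66 to 194 calls, 19 to 109 higher and 47 to 85 lower. Genes that also passed against vehicle ranged from 0 to 140 in these fits. The lowest totals came without mouse 1 of the group without leukemia (66) and without rIL-12 mouse 2 (72), and the highest came without rIL-12 mouse 3. In all 9 of these fits 17 of the higher and 43 of the lower genes were called.

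With the replicate block 125 genes passed (60 higher, 65 lower), 58 of the 70 higher and 63 of the 68 lower genes among them, and 55 also passed against vehicle. Same-numbered mice without leukemia and with rIL-12 did not deviate together (correlations of 0.0066, −0.079 and −0.19), so the numbers were not taken as pairs. The correlations were 0.26, 0.11 and 0.13 between no leukemia and vehicle and 0.33, 0.13 and 0.018 between vehicle and rIL-12. The block ended the calls of Zap70, Cd28, Fos, Ubb and Cul2, among others. Depth limits the 252 probes at or below the viral probe: 8 higher and 9 lower genes are among them, Il10, Havcr2, Ciita and Itgae included. The assay's control probes were not used here. The cause of these shifts was not tested.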

Other observations

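Among the 68 lower probes, 7 carried no gene symbol and none of the 70 higher probes did. The probe XM_006532802.2:1124 was at 2618, 1518 and 2029 normalized counts without leukemia, 1283, 782 and 687 with vehicle and 237, 164 and 473 with rIL-12 (log2 −2.82 ± 0.37 against mice without leukemia). Tcr_167.1:215 was at 239, 177 and 267 without leukemia, 109, 74.8 and 83.6 with vehicle and 58.9, 49.1 and 55.9 with rIL-12 (log2 −2.04 ± 0.21), and it had the smallest adjusted p of all probes in edgeR's quasi-likelihood test (0.000256). Both were also lower with rIL-12 than with vehicle, by 1.66 and 0.70 on the log2 scale. The genes these identifiers stand for were not resolved here.

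Several pathways of the panel showed few calls, where 17.6% of all probes passed. Their counts were not tested against that share. None of 6 TGF-beta pathway genes passed, 2 of 28 genes of PI3K, AKT, mTOR and MAPK signaling did (Mapk13 higher, Pik3cd lower), and 2 of 27 genes of the TNF superfamily, TRAF and NF-kB did (Tnfsf10 higher, Tnfaip3 lower). Of 14 apoptosis genes, the pore former Bak1 rose by 0.96, with 1142, 1053 and 1107 without leukemia and 1893, 2530 and 2007 with rIL-12, and the survival gene Bcl2 was lower. Diablo passed at 0.70 but was lost under each other scaling and in 8 of the 9 fits that drop 1 mouse. Of 16 interleukin receptors, Il1rl1, the receptor for IL-33, was higher (0.67), and Il7r, Il21r (−1.40) and Il27ra (−0.70) were lower. The chaperone Hspa5 rose by 0.87, with 3570, 3502 and 3630 without leukemia and 5516, 7811 and 6256 with rIL-12.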
